A study of Citrus maxima with 12 samples.

Results

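The genes described here are the most abundant transcripts of pomelo fruit whose group means stayed within 2-fold between diseased and control fruit of each cultivar and between the cultivars in each health state. They were chosen from the measured levels themselves. All genes were ranked by mean expression over the 12 libraries, the first 200 were taken, and a gene was kept when 4 differences of log2(group mean + 1) all lay strictly between -1 and 1. The 4 differences were diseased minus control fruit in each cultivar, and Jinlan minus Jinsha fruit in each health state. The differences between diseased fruit of 1 cultivar and control fruit of the other were limited only indirectly, through these 4. This left 126 of 32863 genes. The other 74 genes of the first 200 passed the limit in at least 1 difference.

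Pomelo (Citrus maxima) is a citrus tree with large fruit, and fruit was sampled from the cultivars Jinlan and Jinsha in a study of yellow spot disease. The 4 groups were Jinlan disease, Jinlan control, Jinsha disease and Jinsha control, with 3 libraries each. The labels give the tissue as fruit in every group and do not state the part of the fruit, its age, the agent of the disease or the time of sampling. They also do not say whether replicates came from separate fruits or trees, so tests measure only the spread between these libraries, which may be technical.

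In plant tissue a small part of the genes usually supplies much of the messenger RNA. Such transcripts often belong to processes that every cell runs, such as protein synthesis, and to the specialised products of the tissue. Genes with steady levels serve as references against which others are measured, and steadiness has to be shown again in each tissue and condition. The table pairs no identifier with a gene name or product, so no function is given for any gene named here.

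Expression was given as FPKM, in which fragments are scaled by transcript length and library size, so levels can be set beside each other between genes. A library held 16054 to 16456 genes at 1 FPKM or more, with sums over all genes of 550055 to 575107 FPKM. FPKM is a share of a whole: a gene can stay level while others move, and the reverse. In fruit tissue, fewer cells of a type and less of a transcript per cell cannot be told apart.

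The steady genes had mean levels of 321 to 2658 FPKM, with a median of 474 FPKM. Of the 126 genes, 15 averaged at least 1000 FPKM, 44 lay between 500 and 1000 FPKM, and 67 lay below 500 FPKM. None was listed at 0 in a library, and the lowest single value was 203 FPKM. All 126 passed the filter on low values used for the tests. The highest library of a gene stood above its lowest by a factor of 1.19 to 3.18, with a median of 1.69, and the factor was below 2 for 95 genes and below 1.5 for 40.

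The most abundant of all genes, Cg9g002720, was a steady gene and also ranked first in 6 single libraries, all of them from diseased fruit. It stood at 3242, 3019.9 and 3738 FPKM in diseased Jinlan fruit, against 2129, 2329.9 and 2334 FPKM in control Jinlan fruit. In Jinsha it stood at 3041, 3031 and 2926 FPKM in diseased fruit and at 1979.8, 2033 and 2092 FPKM in control fruit. Diseased libraries were thus higher than control libraries of the same cultivar with no overlap, by 0.55 (SE 0.09) in Jinlan and 0.56 (SE 0.09) in Jinsha on the log2(FPKM + 1) scale.

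Cg4g009640, at rank 3 over all libraries, moved the other way. Its values were 1887, 1825 and 2258 FPKM in diseased and 2313, 2352 and 2327 FPKM in control Jinlan fruit. They were 1787, 1767 and 1779.5 FPKM in diseased and 2506, 2509 and 2532 FPKM in control Jinsha fruit. Diseased libraries were lower with no overlap in either cultivar, although Jinlan disease replicate 3 came near the control level. This gene was the most abundant steady gene in 5 of the 6 control libraries, and Cg9g002720 was in Jinlan control replicate 3.

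At the other end of the ranking, the last steady genes were Cg7g001180 with a mean of 322 FPKM and Cg4g018060 with 321 FPKM. Cg1g004940 and Cg5g040920 came directly after rank 200, both with a mean of 318 FPKM. They met the limits on the differences and were left out by rank alone.

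The smallest variation over the 12 libraries was found for Cg8g005080, at 364 ± 17.3 FPKM (SD, n = 12), a coefficient of variation (CV, the SD as a share of the mean) of 4.75%. Its values were 379.5, 361 and 408 FPKM in diseased and 366, 370.4 and 362 FPKM in control Jinlan fruit. In Jinsha they were 350.3, 366 and 364 FPKM in diseased and 342, 347 and 354 FPKM in control fruit. Jinlan disease replicate 3 was the highest library, and all 4 groups lay within the range of 342 to 408 FPKM.

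Cg7g016780 was next, at 659 ± 33.0 FPKM and a CV of 5.0%. Its values were 647, 639 and 662 FPKM in diseased and 675, 704 and 662 FPKM in control Jinlan fruit, and 677, 705 and 663 FPKM in diseased and 619, 589 and 668 FPKM in control Jinsha fruit. Diseased and control libraries overlapped in each cultivar, and so did the cultivars in control fruit. Diseased Jinlan libraries all lay below diseased Jinsha libraries, though by less than 1 FPKM at the nearest pair.

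The largest variation among the steady genes was a CV of 37.2% for Cg8g007240. It stood at 497, 492 and 548 FPKM in diseased and 874, 1029 and 941 FPKM in control Jinlan fruit. In Jinsha it stood at 404, 358 and 324 FPKM in diseased and 602, 660.2 and 670.0 FPKM in control fruit. Every group was free of overlap with every other, and the level was lower in diseased fruit and lower in Jinsha.

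Cg2g019690 had a CV of 34.0% and the opposite course in disease. Its values were 1815, 1614 and 1766 FPKM in diseased and 1224, 1184 and 1354 FPKM in control Jinlan fruit, and 1049, 1119 and 1095 FPKM in diseased and 668, 645 and 691 FPKM in control Jinsha fruit. The 4 groups again did not overlap. Its group means of 1731 FPKM in diseased Jinlan and 668 FPKM in control Jinsha fruit were a pair that the choice limited only indirectly. The choice thus still allowed the highest library to stand 2.81 times above the lowest for this gene, and 3.18 times for Cg8g007240.

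**Figure D1:**
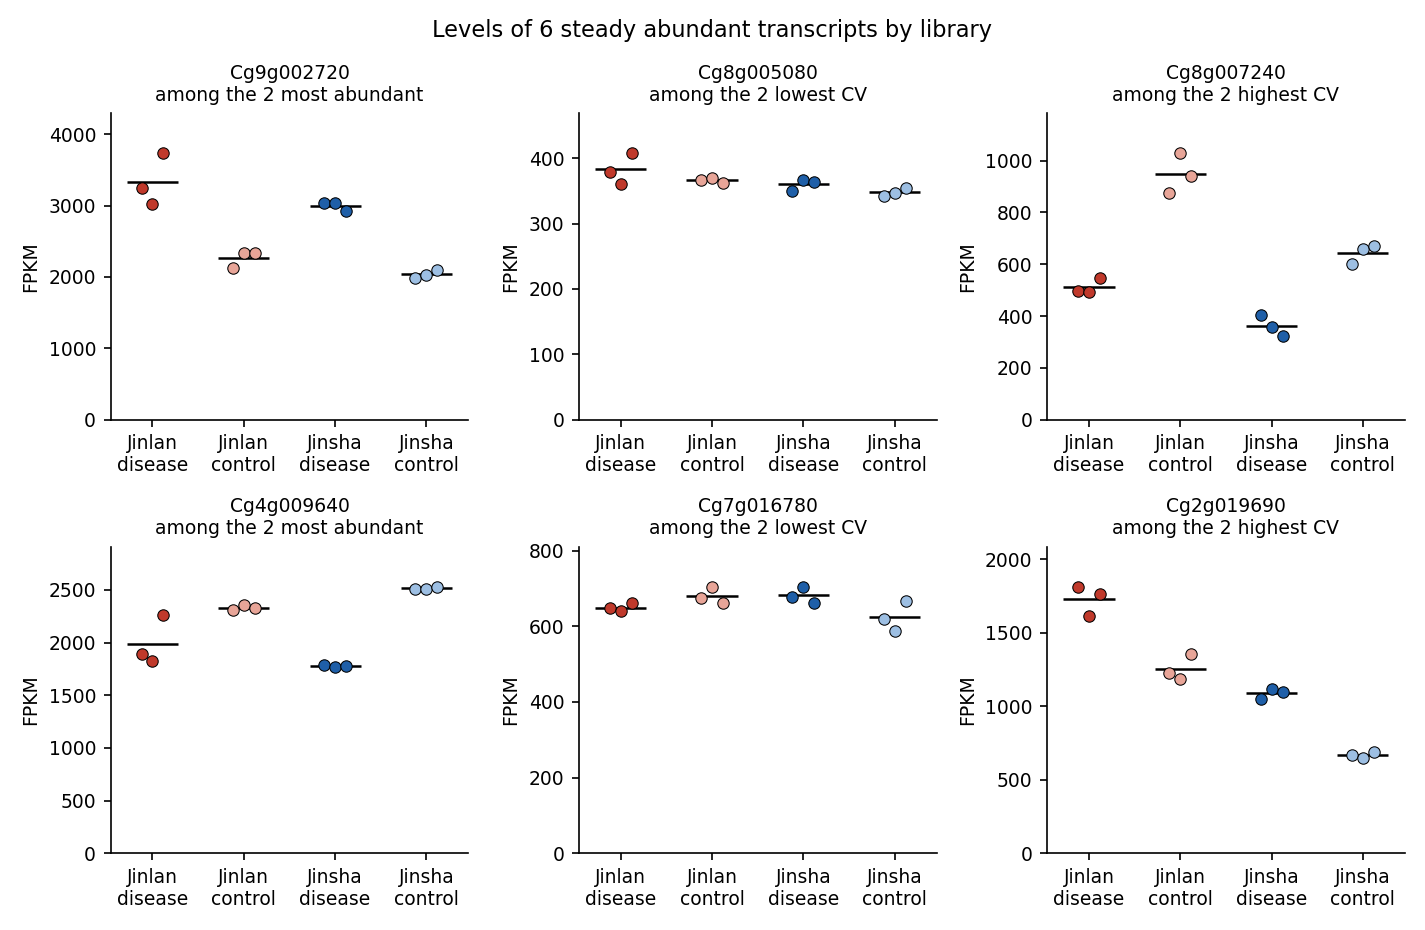
FPKM (vertical axes, starting at 0) of 6 steady genes in the 12 libraries, with groups on the horizontal axes, 1 point per library and a bar at each group mean. The left panels show the 2 most abundant, the middle panels the 2 with the lowest CV (4.75% and 5.0%), where groups lie close together, and the right panels the 2 with the highest CV (37.2% and 34.0%), where the 4 groups stand apart.

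As a sum, the steady genes took 14.0 ± 0.18% of the total FPKM of diseased and 13.5 ± 0.15% of that of control Jinlan libraries (SD, n = 3). In Jinsha the sum was 13.3 ± 0.15% in diseased and 12.9 ± 0.21% in control libraries. The 10 most abundant of them held 2.21% to 3.06% of a library. The other 74 genes of the first 200 held 7.91 ± 0.25% in diseased and 10.3 ± 0.17% in control Jinlan libraries, and 7.59 ± 0.065% in diseased and 9.10 ± 0.17% in control Jinsha libraries. The sums of the first 200 genes were lower in diseased fruit of both cultivars, at 21.9 ± 0.39% against 23.8 ± 0.082% in Jinlan and 20.9 ± 0.22% against 22.0 ± 0.28% in Jinsha. The sum of the steady genes was higher in the diseased than in the control libraries of each cultivar. So was that of the next 200 genes by abundance, and the rise was not particular to the steady genes. Those genes held 9.33 ± 0.062% in diseased and 9.03 ± 0.093% in control Jinlan libraries. In Jinsha they held 8.84 ± 0.065% and 8.68 ± 0.041%. Because the steady genes were chosen on these group means, the sums are a description and were not tested.

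**Figure D2:**
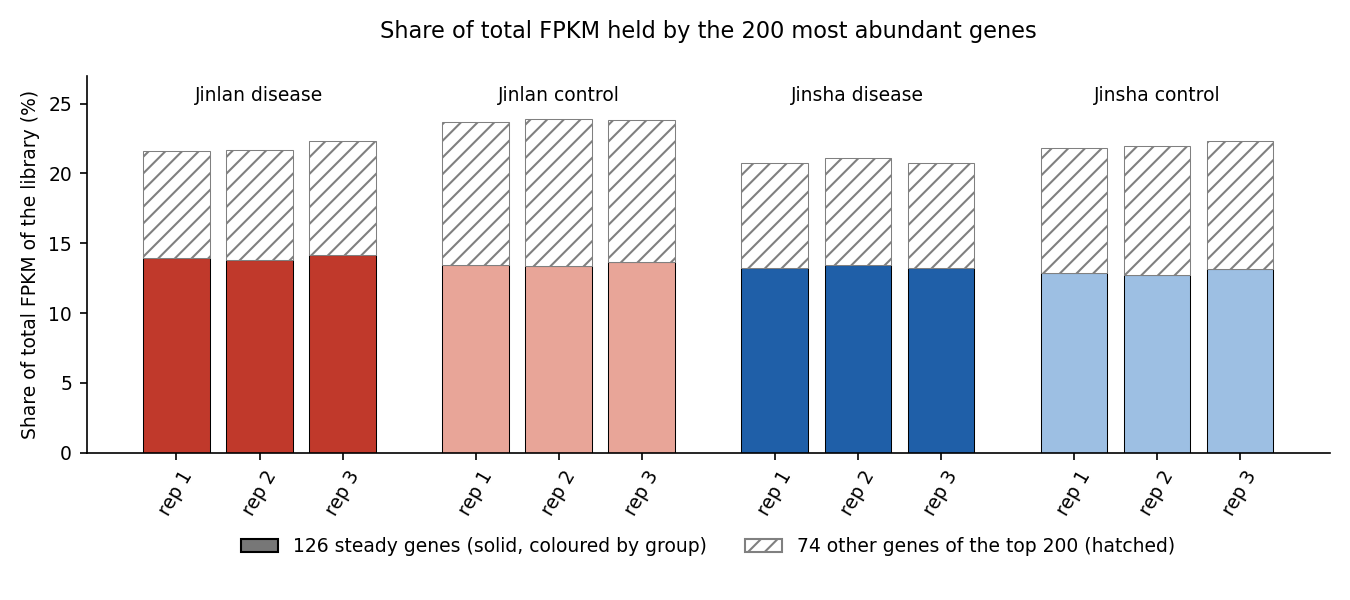
Share of the total FPKM of each library in percent (vertical axis, starting at 0) held by the 126 steady genes (solid) and the 74 other genes of the first 200 (hatched), 1 bar per library in 4 groups. The solid parts range from 12.8% to 14.1%, and the hatched parts from 7.55% to 10.5%, lower in diseased than in control fruit.

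The share of genes with all 4 differences within 2-fold was lower among the most abundant genes than further down the ranking. It was 63% for the first 200 genes by abundance. It was 74% for the next 200, 68.3% for the 600 after those and 78.3% for the 1000 after those, then 82% for the following 3000 and 82.4% for the following 5000. Within the first 200 it was 29 of the first 50 genes and 37 of the last 50. The median SD of the 4 group means was 0.38 (log2) for the first 200 genes and 0.25 for the class of 3000, while the median SD between replicates was 0.090 and 0.079. The pseudocount of 1 narrows the differences of genes at low levels, and the class lowest in abundance reached down to a mean of 8.9 FPKM. Ranking and limits also used the same values. A gene high in 1 group can enter the first 200 through that group and then pass the 2-fold limit. How far the pseudocount and this ranking shaped the shares of the classes was not tested.

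**Figure D3:**
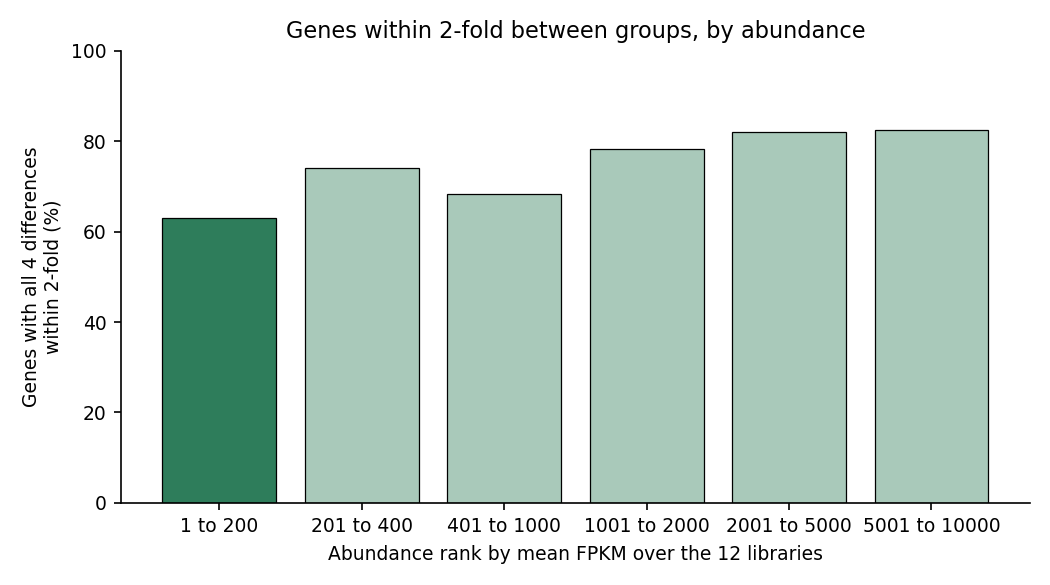
Percentage of genes whose 4 group differences all lay within 2-fold (vertical axis, starting at 0), by class of abundance rank (horizontal axis). The bar for the first 200 genes, at 63%, is the lowest, and the 2 classes lowest in abundance reach 82% and 82.4%.

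The spread between replicates was not itself a criterion of the choice, although it adds to differences of group means and so is not independent of it. Over the steady genes the median SD of log2(FPKM + 1) within groups was 0.083. It was 0.12 for the other 74 genes of the first 200, 0.087 for the next 200 genes by abundance and 0.10 for all 17120 genes tested below (3 or more libraries at 1 FPKM or above). By group, the median for the steady genes was 0.060 in diseased and 0.062 in control Jinlan fruit, and 0.079 in diseased and 0.076 in control Jinsha fruit.

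Replicates were close enough for small group differences to stand out. The SD of the 4 group means was larger than the SD within groups for 122 of the 126 steady genes, 96.8%, and for 91.9% of all genes tested. Differences between groups held 92.3% of the summed variance of the steady genes, against 89.8% over all genes tested. Pearson's r between libraries, with the 126 genes as points, lay between 0.969 and 0.994 for pairs of the same group and between 0.758 and 0.876 for pairs of different groups.

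**Figure D4:**
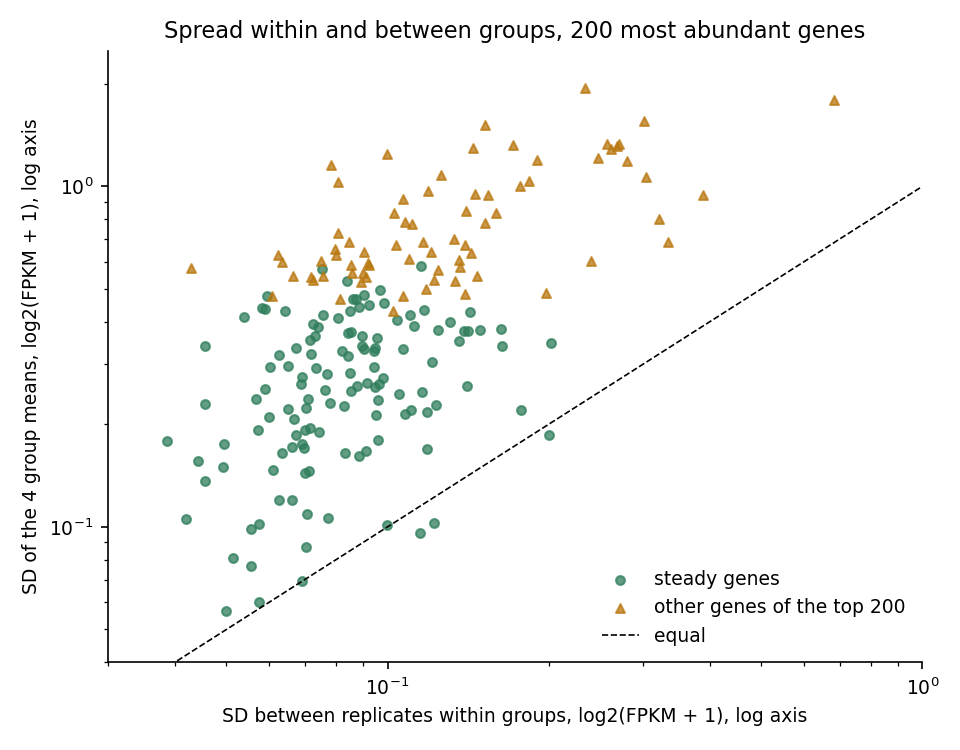
SD of the 4 group means (vertical axis) against SD between replicates within groups (horizontal axis), both of log2(FPKM + 1) on log axes, for the 126 steady genes (circles) and the 74 other genes of the first 200 (triangles). All but 4 circles, and all triangles, lie above the dashed line of equal spread.

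Principal components of the steady genes restated this split by library. The first 3 components held 93.8% of their variance. Differences between the group means span no more than 3 dimensions, so this share could not fall below the 92.3% held between groups. It is therefore not separate evidence that the groups differed, and no value over all genes tested is given beside it. The scores describe which groups stood apart on each component. On the first component, with 36.8%, diseased Jinlan libraries scored 2.57 to 2.77 and diseased Jinsha libraries -2.63 to -2.19. All control libraries lay between -0.84 and 0.48 there. The second, with 32.2%, set control Jinlan libraries (2.52 to 3.27) apart from all others (-1.60 to -0.41). The third, with 24.7%, set control Jinsha libraries (2.35 to 2.72) apart from all others (-1.48 to -0.31).

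Single libraries stood off from their replicates by small amounts. Jinsha control replicate 3 lay farthest from its group mean for 76 steady genes (60.3%, against 39.7% of all genes tested), Jinlan disease replicate 3 for 68 (54.0%, against 42.6%) and Jinsha disease replicate 1 for 58 (46.0%, against 36.5%). No steady gene in any library differed by more than 0.5 (log2) from the mean of the other 2 replicates. Leaving out 1 library at a time, the choice gave 122 to 128 genes, of which 119 to 125 were among the 126. On the second component of the steady genes, replicate 3 of Jinlan control scored 2.52, the others of its group 3.0 and 3.27. Replicate 3 of Jinlan disease scored -0.75 there, the others of its group -1.60 and -1.39. With both of these libraries left out, an alternative added after the data had been seen, the choice gave 120 genes, 118 of them among the 126.

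To see whether the choice held in libraries it had not used, genes were chosen from 2 replicate numbers and their 4 differences were read from the single libraries of the remaining number. With replicate number 1 left out, 117 of 126 chosen genes (92.9%) stayed within 2-fold in all 4 differences. With number 2 left out it was 115 of 129 (89.1%), and with number 3 left out 113 of 125 (90.4%). Of the genes among the first 200 that had not been chosen, 9.46%, 7.04% and 14.7% lay within 2-fold in the libraries left out. The largest difference of a chosen gene in the libraries left out was 1.24 (log2). With a pseudocount of 5, with 130 genes chosen when number 2 was left out, it was 2.08. The libraries left out came from the same groups and may be technical replicates of those used. These counts therefore describe repeatability between the libraries and do not test steadiness in other fruit.

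The limits cut through a continuous range. Just inside were Cg6g003110, with a difference of 0.993 for Jinlan minus Jinsha control fruit, and Cg6g006950, with 0.993 for diseased minus control Jinsha fruit. Just outside were Cg1g027560, with -1.001 for Jinlan minus Jinsha diseased fruit, and Cg8g006910, with 1.012 for diseased minus control Jinsha fruit. Cg8g006910, at rank 4 of all genes, stood at 2566, 2302 and 2590.2 FPKM in diseased and 1283, 1199 and 1214 FPKM in control Jinsha fruit. Of the 126 genes, 89 (70.6%) had all 4 differences below 0.75, 50 (39.7%) below 0.5 and 14 (11.1%) below 0.25. Over all genes tested the shares were 67.7%, 44.0% and 11.1%. The median of the largest of the 4 differences was 0.553 over the steady genes and 0.549 over all genes tested. All 4 differences lay below 1 for 80.2% of all genes tested. The choice cut the steady genes at this limit but not all genes tested, so these shares and medians are not on a like footing. The steady genes were thus set apart from the other abundant genes by the choice, and were not shown to be steadier than genes in general. Of the 74 genes outside, 41 passed the limit between the cultivars in diseased fruit, 40 for disease in Jinlan, 33 for disease in Jinsha and 11 between the cultivars in control fruit.

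All 5 comparisons were then read for the steady genes from limma fits to all 17120 genes tested, with called genes at a Benjamini-Hochberg adjusted p below 0.05. The choice used these same contrasts, so the counts are given beside those over all genes and nothing is read from them, and no p-value is given for a single gene. Counts under other settings stand without the share of all genes called in that setting, and nothing is read from them either. Values are differences of mean log2(FPKM + 1) with SE from the fit and n = 3 libraries per group. The Jinlan and Jinsha disease comparisons share no library, whereas each cultivar comparison shares libraries with both. Genes named by comparison were picked among those whose compared libraries did not overlap, so lack of overlap there is not a result. Of the 17120 genes tested, libraries overlapped for 6083 (disease in Jinsha), 5551 (disease in Jinlan), 6309 (cultivars, control) and 4944 (cultivars, diseased).

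Diseased against control fruit of Jinsha came first. Of the 126 steady genes, 39 had a call for a higher and 40 for a lower level in diseased fruit, 62.7% in all. Of all genes tested 58.2% were called, 27.3% higher and 30.9% lower. The median difference was 0.01 over the steady genes and -0.02 over all genes tested. After quantile normalization 51 were called higher and 29 lower, with medians of 0.08 over the steady genes and 0.04 over all genes tested.

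Cg6g006950 stood at 567, 626 and 666 FPKM in diseased and 309, 301 and 323 FPKM in control Jinsha fruit, a difference of 0.99 (SE 0.07). Cg5g039580 stood at 625, 670.2 and 656 FPKM in diseased and 321, 347 and 320.4 FPKM in control fruit, a difference of 0.98 (SE 0.06). Both were near the limit of the choice, and lack of overlap was a condition for naming them. In Jinlan the same genes differed by 0.07 (SE 0.07) and 0.10 (SE 0.06).

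Cg1g007670 was the lowest in relation to control fruit, at 342, 358 and 338 FPKM in diseased and 652, 656 and 689 FPKM in control Jinsha fruit, a difference of -0.94 (SE 0.06). Cg8g008700 stood at 209, 238 and 211 FPKM in diseased and 368, 364 and 465 FPKM in control fruit, a difference of -0.85 (SE 0.10). Jinsha control replicate 3 was high for the second gene, and without it the difference was -0.74.

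The same comparison in Jinlan gave 46 steady genes higher and 54 lower in diseased fruit, 79.4% in all. Of all genes tested 61.7% were called, 31.4% higher and 30.3% lower. The median difference was -0.07 over the steady genes and 0.01 over all genes tested. After quantile normalization the order turned, with 0.0085 over the steady genes and -0.0016 over all genes tested. It did not turn after median-ratio scaling, with -0.07 and 0.0039. Without the replicate 3 libraries of both Jinlan groups, 94 of the steady genes were called in place of 100.

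Cg9g027560 stood at 634, 589.6 and 649.9 FPKM in diseased and 306, 293 and 344 FPKM in control Jinlan fruit, a difference of 0.99 (SE 0.07). Its Jinsha libraries overlapped, at 336, 347 and 327 FPKM in diseased and 349.8, 335 and 308 FPKM in control fruit. CgUng001520 stood at 813, 782 and 680.1 FPKM in diseased and 407, 369 and 458 FPKM in control Jinlan fruit, a difference of 0.88 (SE 0.10).

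Cg8g007240, the most variable steady gene, had the largest decrease in Jinlan, with a difference of -0.88 (SE 0.09), and one of -0.83 (SE 0.09) in Jinsha. Cg8g022260 stood at 227, 228 and 214 FPKM in diseased and 383, 457 and 379.7 FPKM in control Jinlan fruit, a difference of -0.86 (SE 0.08). It was also lower in diseased Jinsha fruit, at 312, 314 and 312 FPKM against 531, 456 and 501 FPKM in control fruit. Lack of overlap in Jinlan was a condition for naming both genes here, and their health states did not overlap in Jinsha either.

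Taking the cultivars side by side, 10 steady genes had higher and 16 lower calls in diseased fruit of both. Opposite calls were made for 18 genes higher in diseased Jinsha and lower in diseased Jinlan fruit and for 19 the other way round. Another 37 were called for disease in Jinlan alone, 16 in Jinsha alone and 10 in neither. Over all genes tested the shares were 9.38% and 12.1% for the same direction, 7.86% and 9.15% for opposite directions, 23.2% and 19.7% for 1 cultivar alone and 18.6% for neither. A call in 1 cultivar alone is not a test of a difference between them.

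That difference is the interaction, the disease change in Jinlan minus that in Jinsha. It was called for 85 steady genes, 41 higher and 44 lower, 67.5% in all, against 58.7% of all genes tested (31.5% higher and 27.2% lower). The choice limited each disease difference, and so bounded their difference from each other only indirectly. That difference ranged from -1.21 to 1.43 over the steady genes (from group means of FPKM), a range not free of the choice. Its median was -0.06, against 0.03 over all genes tested. After quantile normalization the medians were -0.05 and -0.05, and after median-ratio scaling -0.09 and 0.0025.

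Cg8g024340 had the highest value, 1.42 (SE 0.12). It stood at 621, 521 and 488 FPKM in diseased and 299.9, 277 and 325 FPKM in control Jinlan fruit, and at 320.3, 346 and 337 FPKM in diseased and 501, 501 and 496 FPKM in control Jinsha fruit. The disease difference was thus upward in Jinlan and downward in Jinsha, with no overlap in either, which was a condition for naming it here. CgUng001520 followed with 1.28 (SE 0.14) and was lower in diseased Jinsha fruit, at 466, 579 and 505 FPKM against 665, 688 and 684 FPKM in control fruit.

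The opposite course was seen for Cg2g023630, with an interaction of -1.22 (SE 0.12). It stood at 848, 745 and 902 FPKM in diseased and 1043, 982 and 987 FPKM in control Jinlan fruit, and at 917, 1040.1 and 990.5 FPKM in diseased and 492, 492 and 549 FPKM in control Jinsha fruit. Control Jinsha fruit had the lowest level of the 4 groups for this gene. For Cg6g000090 the interaction was -1.18 (SE 0.12), with 203, 205 and 223 FPKM in diseased and 325, 428 and 375 FPKM in control Jinlan fruit. In Jinsha that gene stood at 406, 409 and 441 FPKM in diseased and 332, 310.2 and 342 FPKM in control fruit.

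In control fruit, 50 steady genes had a call for a higher and 31 for a lower level in Jinlan than in Jinsha, 64.3% in all. Of all genes tested 57.9% were called, 21.2% higher and 36.8% lower. The median difference was 0.08 over the steady genes and -0.09 over all genes tested, a gap of 0.17 that was 0.031 after quantile normalization. The balance depended on scaling: with median-ratio scaling 65 steady genes were higher and 26 lower by the test, and with quantile normalization 30 and 39. The median of all genes tested moved too, to 0.0024 with median-ratio scaling and -0.0019 with quantile normalization. The balance is therefore not read as a trait of the steady genes.

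Cg6g003110 stood at 1733, 1640.5 and 1615 FPKM in Jinlan and 834, 816 and 854 FPKM in Jinsha control fruit, a difference of 0.99 (SE 0.08). The same gene was higher in Jinlan in diseased fruit, by 0.81 (SE 0.08). Cg2g023630, described above, differed by 0.97 (SE 0.08). The lowest values in relation to Jinsha were those of Cg1g019360, at 487, 478 and 502 FPKM in Jinlan and 909, 839 and 1027 FPKM in Jinsha control fruit, a difference of -0.91 (SE 0.08). Cg4g001470 stood at 359, 346 and 380.0 FPKM in Jinlan and 663, 649.7 and 661 FPKM in Jinsha control fruit, a difference of -0.86 (SE 0.09).

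In diseased fruit, 44 steady genes had a call for a higher and 45 for a lower level in Jinlan, 70.6% in all, against 67.3% of all genes tested (28.6% higher and 38.7% lower). The median difference was 0.01 over the steady genes and -0.07 over all genes tested. After quantile normalization the medians were -0.08 and -0.06, and 36 steady genes were called higher and 57 lower. With median-ratio scaling the medians were 0.09 and -0.0082.

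Cg6g016070 stood at 478, 491 and 487 FPKM in Jinlan and 233, 272 and 240.1 FPKM in Jinsha diseased fruit, a difference of 0.97 (SE 0.07). Cg6g020100 stood at 664, 685 and 643 FPKM in Jinlan and 337, 337 and 351 FPKM in Jinsha diseased fruit, a difference of 0.96 (SE 0.07). In control fruit the second gene did not separate the cultivars, at 458, 430.2 and 449 FPKM in Jinlan and 480.4, 498 and 422 FPKM in Jinsha.

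Cg6g000090 and Cg6g006430 were lowest in Jinlan relative to Jinsha diseased fruit, both at -0.99 (SE 0.09 and 0.08). Cg6g006430 stood at 435, 421 and 446 FPKM in Jinlan and 797, 885 and 914 FPKM in Jinsha diseased fruit, and in control fruit at 553, 536 and 549 FPKM in Jinlan and 783, 676 and 819.9 FPKM in Jinsha. It was lower in Jinlan in both health states. Lack of overlap in diseased fruit was a condition for naming it here, and the cultivars did not overlap in control fruit either.

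**Figure D5:**
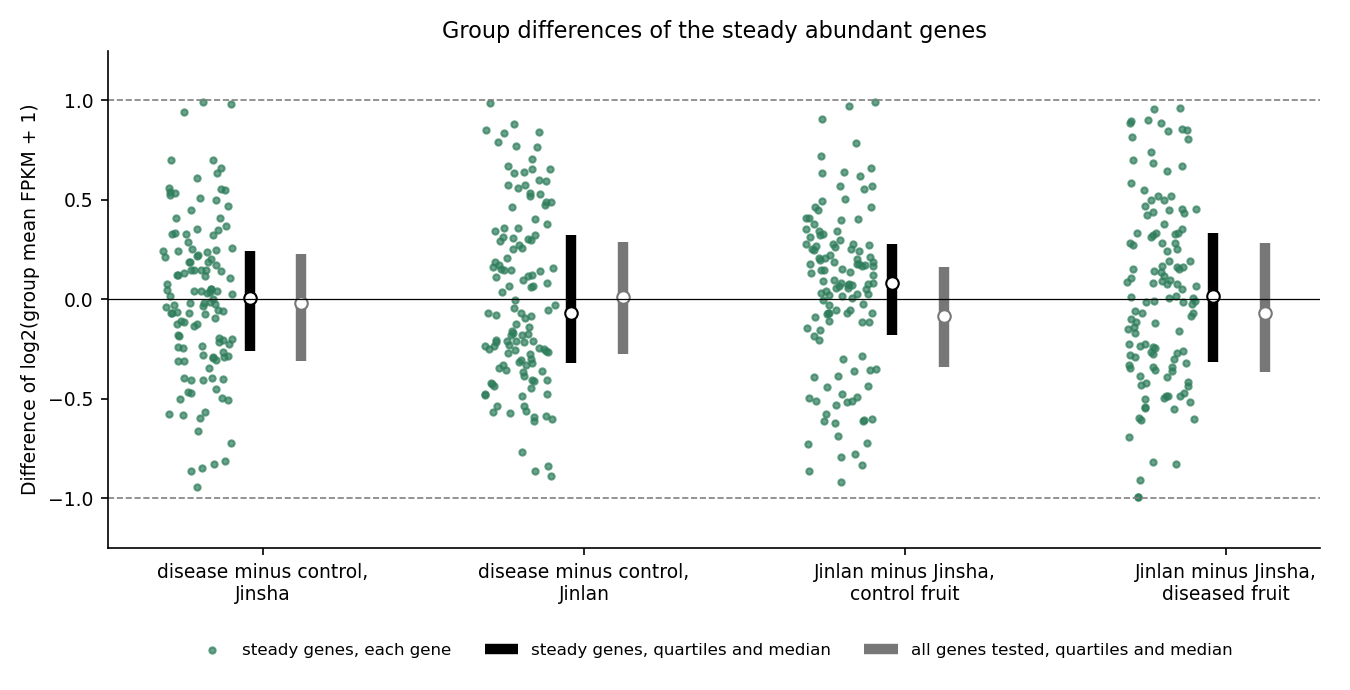
Differences of log2(group mean FPKM + 1) of the 126 steady genes (green points, spread sideways for visibility) in the 4 comparisons of the choice, with dashed lines at its limits of -1 and 1. Thick bars run from the lower to the upper quartile with a circle at the median, black for the steady genes and grey for all genes tested. Between the cultivars in control fruit these medians lie 0.17 apart (log2). They lie 0.18 apart after median-ratio scaling and 0.031 apart after quantile normalization.

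Across the 5 comparisons, 22 steady genes were called in every one and 5 in none, that is 17.5% and 3.97%, against 13.9% and 7.20% of all genes tested. The 5 were Cg9g002830, Cg7g016780, Cg7g004090, Cg8g005080 and Cg9g021630, picked out after their values had been seen. Their means were 1086, 659, 584, 364 and 358 FPKM in this order, and their CVs ran from 4.75% to 6.83%. The highest library of each exceeded its lowest by at most 1.24 times, and the largest group difference among them was 0.154 (log2). A p that misses the threshold does not show equal levels. The 22 genes called throughout had CVs of 11.7% to 26.9%.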

How the data were processed

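RNA was taken from 12 fruit samples with a Qiagen column kit, and libraries were made with a SMARTER kit, per the labels. The authors deposited 1 table with the FPKM of each gene by library. Aligner, genome build, annotation and counter were not given in the sources used here. Low FPKM values shared no common step between libraries (at most 1.24% of low genes had the same ratio, in steps of 0.01), so depth is unknown and no counting interval is given.

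Groups came from the labelled cultivar and treatment. Values were transformed to log2(FPKM + 1), and the 17120 of 32863 genes that reached 1 FPKM in 3 or more libraries were fitted as 4 group means with limma 3.58.1 (empirical Bayes with a mean-variance trend) in R 4.3.3. The fit was also run on simulated data with few changed genes, unlike these data, so that run does not test the calls reported here. The choice of genes used group means of FPKM as deposited. No library pair shared more than 0.00438% of nonzero values. No genome or annotation was used, 0 identifiers were matched to a name, and gene lists by function were therefore not run.

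The genes and lists were chosen with earlier results of these data known. Named steady genes were the 2 most abundant, the 2 with the lowest and the 2 with the highest CV, the 2 highest and 2 lowest differences per comparison among genes whose libraries did not overlap (for the interaction, in both cultivars), the 2 nearest each side of the limit, and the 2 nearest each side of rank 200. The 5 genes called in no comparison were added. Alternatives were other pseudocounts, filters, scalings, variance models, rank and fold limits, libraries left out, and a block for replicate number. Python 3.11.15 with matplotlib 3.10.9 was used for the figures.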

Additional observations from a re-analysis of the deposited data

Results flagged for a closer look

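The disease effect differed between the cultivars by the interaction test for 85 of the 126 steady genes (67.5%), and for 16 of the 24 steady genes named by the rule. Of all genes tested 58.7% had this call. These genes were chosen or named on the contrasts that form the interaction, so the count adds no support. The differences on the log2(FPKM + 1) scale, Jinlan minus Jinsha, were 1.42 for Cg8g024340, 1.28 for CgUng001520, 1.18 for Cg4g001470, 1.09 for Cg1g007670 and 1.02 for Cg6g020100. They were 0.96 for Cg9g027560, 0.72 for Cg6g016070, 0.43 for Cg7g001180, 0.38 for Cg8g008700 and 0.37 for Cg1g019360. Negative differences were found for Cg2g023630 (-1.22), Cg6g000090 (-1.18), Cg6g006950 (-0.92), Cg5g039580 (-0.88), Cg6g006430 (-0.52) and Cg4g018060 (-0.50).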

How the results depend on the processing

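The number of steady genes was 126 as reported and depended on the limits: 58 of the first 100 genes, 274 of the first 400, and 68 of the first 200 at a limit of 1.5-fold. It stayed between 120 and 149 under the other pseudocounts, scalings, ranking by the lowest group mean, group means of log2 values and the libraries left out. The median difference of the steady genes between Jinlan and Jinsha control fruit was 0.18 after median-ratio scaling in place of 0.08. That scaling divides each library by 1 factor and moved the median of all genes tested by 0.088 in the same direction. In diseased fruit the median of the steady genes was -0.085 after quantile normalization in place of 0.01, while that of all genes tested moved by 0.0065. The causes of these moves were not tested. No scaling moved the median of all genes tested by over 0.1 (log2). Counts of called steady genes stayed within 1.5 times of those reported in every fit run. Without 1 library they ranged from 66 to 85 (disease in Jinsha), 84 to 102 (disease in Jinlan), 78 to 90 (interaction), 69 to 83 (cultivars, control) and 83 to 91 (cultivars, diseased). The shares of all genes called in these fits are not given here.

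Same-numbered libraries of different groups had correlations of their deviations from group means of -0.17 to 0.04 over 18 pairs. A library correlated best with its own number in 2 of 36 cases. The numbers therefore did not pair libraries across groups. Whether libraries of unlike numbers share a batch was not tested. With the replicate number as a block, 75, 89, 80, 77 and 85 steady genes were called in the same order of comparisons. For genes named by comparison, the difference in that comparison kept its sign in every fit run. Differences of named genes in other comparisons were not followed across the fits.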

Other observations

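Identifiers of the steady genes carried all prefixes of the table. Those beginning with Cg8g were 17 of 126 (13.5%, against 7.36% of all genes tested), with Cg6g also 17 (13.5%, against 8.56%), with Cg2g 13 (10.3%, against 15.9%), and with NewGene 3 (2.38%, against 6.19%). The first 200 genes together held 26 of Cg8g, 24 of Cg6g, 25 of Cg2g and 6 of NewGene, so the 74 other abundant genes carried these prefixes too. In single libraries 98 to 115 of the 126 steady genes were among the first 200, and 76 were so in every library, against 25 of the 74 other genes. The other genes were those past the 2-fold limit, so this contrast largely follows from the choice.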
